A study of Mus musculus with 18 samples.

Results

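The 10 genes of peptide presentation by MHC class I described here were followed across 3 crosses of mice: the transactivator Nlrc5, the heavy chains H2-K1, H2-D1 and H2-M3, the light chain B2m, the peptide transporter subunits Tap1 and Tap2, the loading protein Tapbp, and the immunoproteasome subunits Psmb8 and Psmb9. They were chosen by symbol from the deposited table, are 10 of its 32789 genes, and all 10 were among the 12900 genes that passed the filter on low counts. RNA sequencing of polyA transcripts was done on alveolar macrophages, which live in the airspaces of the lung, taken by lavage and enriched with CD11c beads. The 6 groups held 3 libraries each, 18 in all. The Vhl/Hif1a knockout carried the genotype CD11c-Cre_Vhl-Hif1-KO and its control floxed Vhl and Hif1a alleles (Vhl-Hif1a_flox-flox). The Vhl/Hif2a knockout carried CD11c-Cre_Vhl-Hif2-KO and its control Vhl-Hif2a_flox-flox, where Hif2a is the gene Epas1. The triple knockout carried CD11c-Cre_Vhl-Hif1-Hif2-KO and its control Vhl-Hif1-Hif2a_flox-flox. Cre is driven by CD11c and so is not limited to alveolar macrophages, the labels do not say whether controls carried Cre, and age and sex are not given. Nothing in the labels says that the 3 libraries of a group came from separate animals, so p-values measure only the spread between these libraries, which may be technical.

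Class I molecules carry peptides made in the cytosol to the cell surface, where CD8 T cells and NK cells read them. Proteasomes, in immune cells partly built with the immunoproteasome subunits, cut proteins to peptides, TAP pumps the peptides into the endoplasmic reticulum, and tapasin (Tapbp) helps load them on a heavy chain bound to beta-2 microglobulin (B2m). NLRC5 is drawn with RFX, CREB-family and NF-Y proteins to the SXY module of class I promoters, the counterpart of CIITA at class II promoters, and interferon gamma raises the whole set. VHL marks HIF-1α and HIF-2α for degradation, so loss of Vhl stabilises whichever HIF remains.

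Library totals ran from 19230000 to 34015000 counts (rounded). Vhl RNA fell in each knockout, with log2 fold changes of -2.55, -3.05 and -2.56 in the Vhl/Hif1a, Vhl/Hif2a and triple crosses. In the libraries labelled Vhl/Hif2a knockout Hif1a RNA fell (log2 fold change -1.71 ± 0.18 SE, edgeR adjusted p = 4.3e-06) and Epas1 RNA rose (0.97 ± 0.19, edgeR adjusted p = 0.0019), and neither gene was called in the other knockouts. Gene counts also cover exons outside a deleted part and do not check these deletions, so the knockouts are named by their labels throughout. Summed alveolar macrophage markers (10 genes, among them Siglecf, Marco and Chil3) stood at 22175 to 39648 CPM, while 11 T and NK cell markers summed to at most 0.869 CPM, with Ncr1 and Ifng at 0 in all libraries. CPM are counts scaled to the effective library size.

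The promoters of the heavy chains and B2m are shown because the results turn on whether these genes moved with Nlrc5, and those of H2-Q6 and H2-Q7, nonclassical heavy chains, because both fell with Nlrc5 in the Vhl/Hif2a cross. Each window of 300 bases runs from 250 bases before to 50 bases after the transcript start, 5′ to 3′ on the gene's strand, as given by RefSeq on GRCm38.p6. Capitals mark matches on either strand to TGACG (core of the X2 element), ATTGG (the Y box, an inverted CCAAT), TTTCACTTCT (an interferon-response-like element) and GGGGATTCCC (a kappa B element). Both longer elements are forms long known from mouse class I promoters, read here from the H2-K1 window, which therefore holds them by construction.
H2-K1 (chr17:34000298-34000597, - strand): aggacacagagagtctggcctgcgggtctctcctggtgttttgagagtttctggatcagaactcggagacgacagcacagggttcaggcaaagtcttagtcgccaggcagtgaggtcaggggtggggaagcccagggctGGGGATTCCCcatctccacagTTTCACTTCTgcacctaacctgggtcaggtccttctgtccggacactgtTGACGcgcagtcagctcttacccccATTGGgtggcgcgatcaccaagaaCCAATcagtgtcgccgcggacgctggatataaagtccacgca
H2-D1 (chr17:35262844-35263143, + strand): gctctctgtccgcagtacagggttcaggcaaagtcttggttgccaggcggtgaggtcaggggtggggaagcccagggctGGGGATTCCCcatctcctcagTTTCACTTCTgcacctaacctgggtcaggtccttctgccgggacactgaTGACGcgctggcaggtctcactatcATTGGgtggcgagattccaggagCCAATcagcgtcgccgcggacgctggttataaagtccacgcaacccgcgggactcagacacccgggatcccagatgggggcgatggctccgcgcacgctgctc
H2-M3 (chr17:37269984-37270283, + strand): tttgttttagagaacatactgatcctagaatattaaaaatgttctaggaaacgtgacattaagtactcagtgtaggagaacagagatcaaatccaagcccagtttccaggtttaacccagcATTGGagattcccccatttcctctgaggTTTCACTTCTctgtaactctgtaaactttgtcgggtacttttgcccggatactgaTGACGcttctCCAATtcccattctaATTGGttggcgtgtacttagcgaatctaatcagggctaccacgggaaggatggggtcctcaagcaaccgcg
B2m (chr2:122147437-122147736, + strand): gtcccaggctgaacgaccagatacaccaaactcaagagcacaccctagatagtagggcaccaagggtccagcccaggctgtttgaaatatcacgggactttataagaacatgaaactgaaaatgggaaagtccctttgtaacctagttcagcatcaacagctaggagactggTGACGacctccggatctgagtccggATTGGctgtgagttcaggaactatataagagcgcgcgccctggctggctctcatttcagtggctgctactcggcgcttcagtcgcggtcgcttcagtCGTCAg
H2-Q6 (chr17:35424600-35424899, + strand): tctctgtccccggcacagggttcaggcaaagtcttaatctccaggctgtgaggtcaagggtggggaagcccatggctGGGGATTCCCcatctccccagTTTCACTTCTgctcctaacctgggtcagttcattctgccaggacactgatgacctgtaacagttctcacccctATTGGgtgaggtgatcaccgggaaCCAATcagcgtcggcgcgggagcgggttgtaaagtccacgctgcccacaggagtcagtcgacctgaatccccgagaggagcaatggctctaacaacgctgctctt
H2-Q7 (chr17:35438905-35439204, + strand): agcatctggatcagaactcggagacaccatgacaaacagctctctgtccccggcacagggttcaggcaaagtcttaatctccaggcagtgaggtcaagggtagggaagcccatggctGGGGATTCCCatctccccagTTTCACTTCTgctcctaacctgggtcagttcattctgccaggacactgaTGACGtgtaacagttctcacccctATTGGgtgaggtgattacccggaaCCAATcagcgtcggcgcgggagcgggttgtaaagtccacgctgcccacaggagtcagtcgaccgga

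In 5 of these 6 windows TGACG was followed on the gene's strand by ATTGG, at a first-base distance of 25 bases in H2-K1, H2-D1, H2-M3 and B2m and of 24 bases in H2-Q7. The H2-Q6 window held ATTGG and both longer elements. It held no exact TGACG, with TGACC at the place where H2-Q7 has it, and so was not counted for this spacing. That spacing, read off these windows, occurred in 43 of 32817 promoter windows (0.131%), counting both strands. Of the 10 members 8 had a window, Nlrc5 and Tap2 being the others. TGACG and ATTGG both occurred in 6 of these 8 windows and in 7.71% of all windows. The Tap1 and Psmb9 windows are largely the same DNA read from opposite strands. Their matches are the same sites, counted under both genes here and for GCGTG below. Singly, TGACG was in 20.8% and ATTGG in 37.4% of all windows. TTTCACTTCT was in H2-K1, H2-D1 and H2-M3 (0.155% of all windows) and GGGGATTCCC in H2-K1 and H2-D1 (0.107%). The Psmb8 window held none of the 4 motifs. The windows of H2-D1, Tapbp, Psmb8 and Psmb9 lie inside the GENCODE M21 spans of these genes, downstream of the annotated gene starts. A motif before those starts would be missed there. The HIF-binding core GCGTG was in 6 of the 8 windows and ACGTG in 1, against 32.4% and 19.6% of all windows, and in H2-Q7 an ACGTG shares letters with TGACG. These are letter matches and not measured binding.

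**Figure D1:**
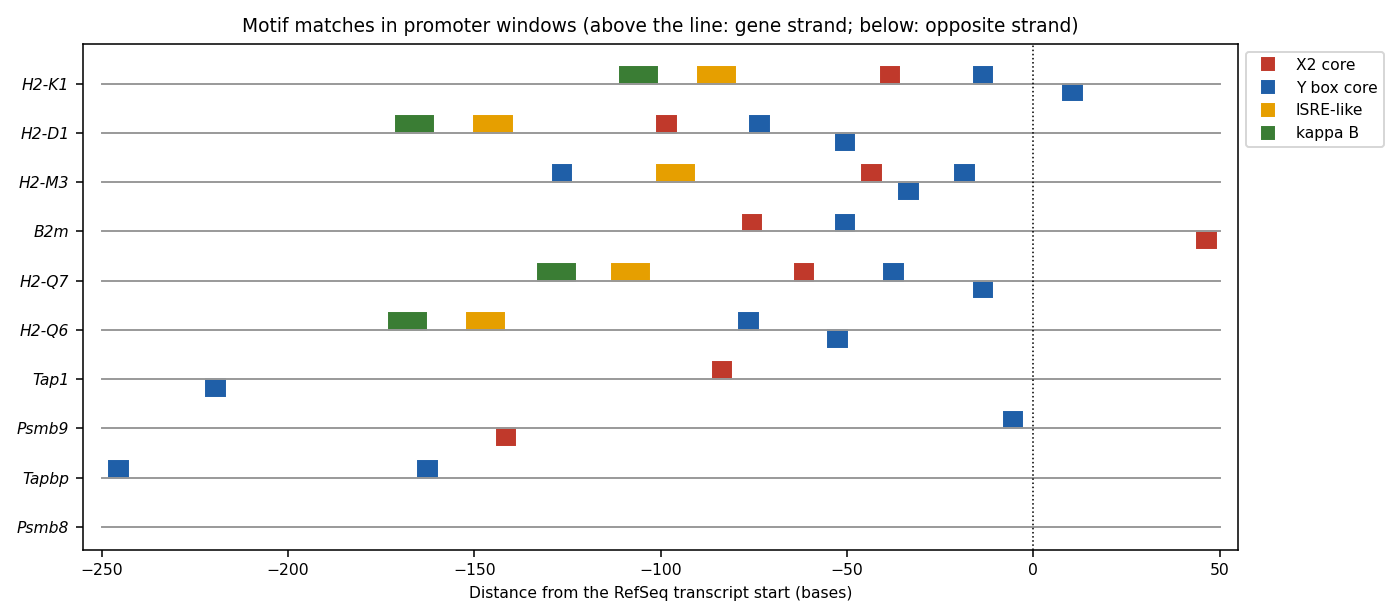
Motif matches in the promoter windows of the 8 class I presentation genes that have one and of H2-Q6 and H2-Q7, by distance in bases from the RefSeq transcript start (marks above a line lie on the gene's strand, below it on the opposite strand). The X2 and Y box cores stand 25 bases apart in H2-K1, H2-D1, H2-M3 and B2m and 24 apart in H2-Q7. H2-Q6 has no exact match to the X2 core TGACG.

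Nlrc5 RNA fell in libraries labelled Vhl/Hif2a knockout, to 18.5% of control by fitted fold, fell less in the Vhl/Hif1a knockout, to 53.1%, and was not called in the triple knockout. Nlrc5 (ENSMUSG00000074151, chromosome 8, 94434356 to 94527272, plus strand, GRCm38 coordinates of GENCODE M21) encodes an NLR-family protein that activates class I transcription. In Vhl/Hif2a knockout libraries it was at 1.79, 2.79 and 2.93 CPM, against 15.2, 14.97 and 10.6 CPM in control libraries. All knockout libraries lay below all controls, and control 3 was the lowest control. The log2 fold change was -2.44 ± 0.20 (edgeR adjusted p = 2.6e-07), and the gene was the 75th of 12900 by p. The call held in 18 of 18 fits that left out 1 library, at -2.59 to -2.24.

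In Vhl/Hif1a knockout libraries Nlrc5 was at 5.22, 5.77 and 6.10 CPM, against 9.28, 11.1 and 11.8 CPM in control libraries. The groups did not overlap, and the log2 fold change was -0.91 ± 0.19 (edgeR adjusted p = 0.0103). The call ended without knockout 1 (-0.85, edgeR adjusted p = 0.0547) or without control 3 (-0.84, edgeR adjusted p = 0.0532). In triple knockout libraries Nlrc5 was at 12.0, 8.90 and 12.0 CPM, against 13.2, 11.6 and 9.35 CPM in control libraries. These groups overlapped, with a log2 fold change of -0.05 ± 0.19 (edgeR adjusted p = 0.893) and a 95% interval of -0.45 to 0.34.

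The differences between the effects were tested as contrasts of the same fit. The Vhl/Hif1a effect on Nlrc5 minus the Vhl/Hif2a effect was 1.52 ± 0.28 on the log2 scale (edgeR adjusted p = 0.0044), and the Vhl/Hif2a effect minus the triple effect was -2.38 ± 0.27 (edgeR adjusted p = 2.7e-05). The Vhl/Hif1a effect minus the triple effect was -0.86 ± 0.27 and was not called (edgeR adjusted p = 0.138, 95% interval -1.43 to -0.29). Ordered by mean CPM, Nlrc5 was lowest in Vhl/Hif2a knockout (2.50 ± 0.624 SD, n = 3), then Vhl/Hif1a knockout (5.70 ± 0.444), and these groups did not overlap each other or the next. The other groups, Vhl/Hif1a control (10.7 ± 1.31), triple knockout (10.96 ± 1.79), triple control (11.4 ± 1.91) and Vhl/Hif2a control (13.6 ± 2.58), overlapped their neighbours.

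Markers of dendritic cells, which share CD11c with alveolar macrophages, were lower in Vhl/Hif2a knockout libraries. Of 10 such markers 5 were called lower (Flt3, Zbtb46, Ccr7, Fscn1 and Itgae) and 0 higher, where 7.01% of all genes were lower, and their summed level was 39.4, 46.0 and 42.4 CPM in Vhl/Hif2a knockout libraries against 106, 92.8 and 51.6 CPM in control libraries. Control 3 was the lowest control for both this sum and Nlrc5. In the Vhl/Hif1a cross the sum was 33.5 to 54.8 CPM in knockout and 49.9 to 65.4 CPM in control libraries, with 0 of 10 markers called. Still, 0 of the 10 had a positive log2 fold change in either double knockout, with medians of -0.43 (Vhl/Hif1a) and -1.09 (Vhl/Hif2a). In the triple cross the sum was 47.9 to 51.5 CPM in knockout and 44.5 to 80.2 CPM in control libraries. There 4 of 10 were positive, the median was -0.11 and 0 were called. No dendritic cell marker was at 0 in all libraries of a group. Marker sums of other cells also differed. Those of neutrophils (6 genes, Ly6g at 0) stood at 73.7 to 82.1 CPM in Vhl/Hif1a knockout and 149 to 165 CPM in control libraries. Single neutrophil markers moved both ways. Of 5 tested, 3 were called lower and 1 higher in the Vhl/Hif1a knockout, against 1.42% and 2.22% of all genes. In the Vhl/Hif2a knockout 2 were called lower and 1 higher, against 7.01% and 7.68%. Monocyte markers (4 genes) summed to 21.1 to 22.2 CPM in Vhl/Hif2a knockout against 9.89 to 16.04 CPM in control libraries, and to 21.4 to 29.1 CPM in Vhl/Hif1a knockout against 13.5 to 16.2 CPM in control libraries. Of 3 monocyte markers tested, 1 was called higher and 0 lower in each double knockout, and 2 had a positive log2 fold change in each. B cell markers summed to at most 1.23 CPM with Pax5 at 0 in all libraries, while epithelial markers (6 genes) summed to 156 to 196 CPM in Vhl/Hif1a knockout against 174 to 206 CPM in control libraries and to 503 to 540 CPM in Vhl/Hif2a knockout against 394 to 555 CPM in control libraries, and endothelial markers (4 genes) summed to at most 0.925 CPM. Summed alveolar macrophage markers themselves were higher in all knockout libraries than in all controls of their cross, at 32934 to 39648 CPM in Vhl/Hif1a knockout against 28145 to 29606 CPM in control libraries. They summed to 33973 to 36326 CPM in Vhl/Hif2a knockout against 25016 to 28778 CPM in control libraries, and to 33088 to 33736 CPM in triple knockout against 22175 to 30059 CPM in control libraries. Of these 10 markers, 4 rose and 2 fell in the Vhl/Hif2a knockout, against 7.68% of all genes higher and 7.01% lower. In the Vhl/Hif1a knockout 0 rose and 1 fell (2.22% and 1.42% of all genes). In the triple knockout 1 rose and 0 fell (0.0388% of all genes called either way). The part of any of these cells in the results on these genes was not tested, and in bulk RNA fewer cells of a type and less RNA per cell cannot be told apart.

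**Figure D2:**
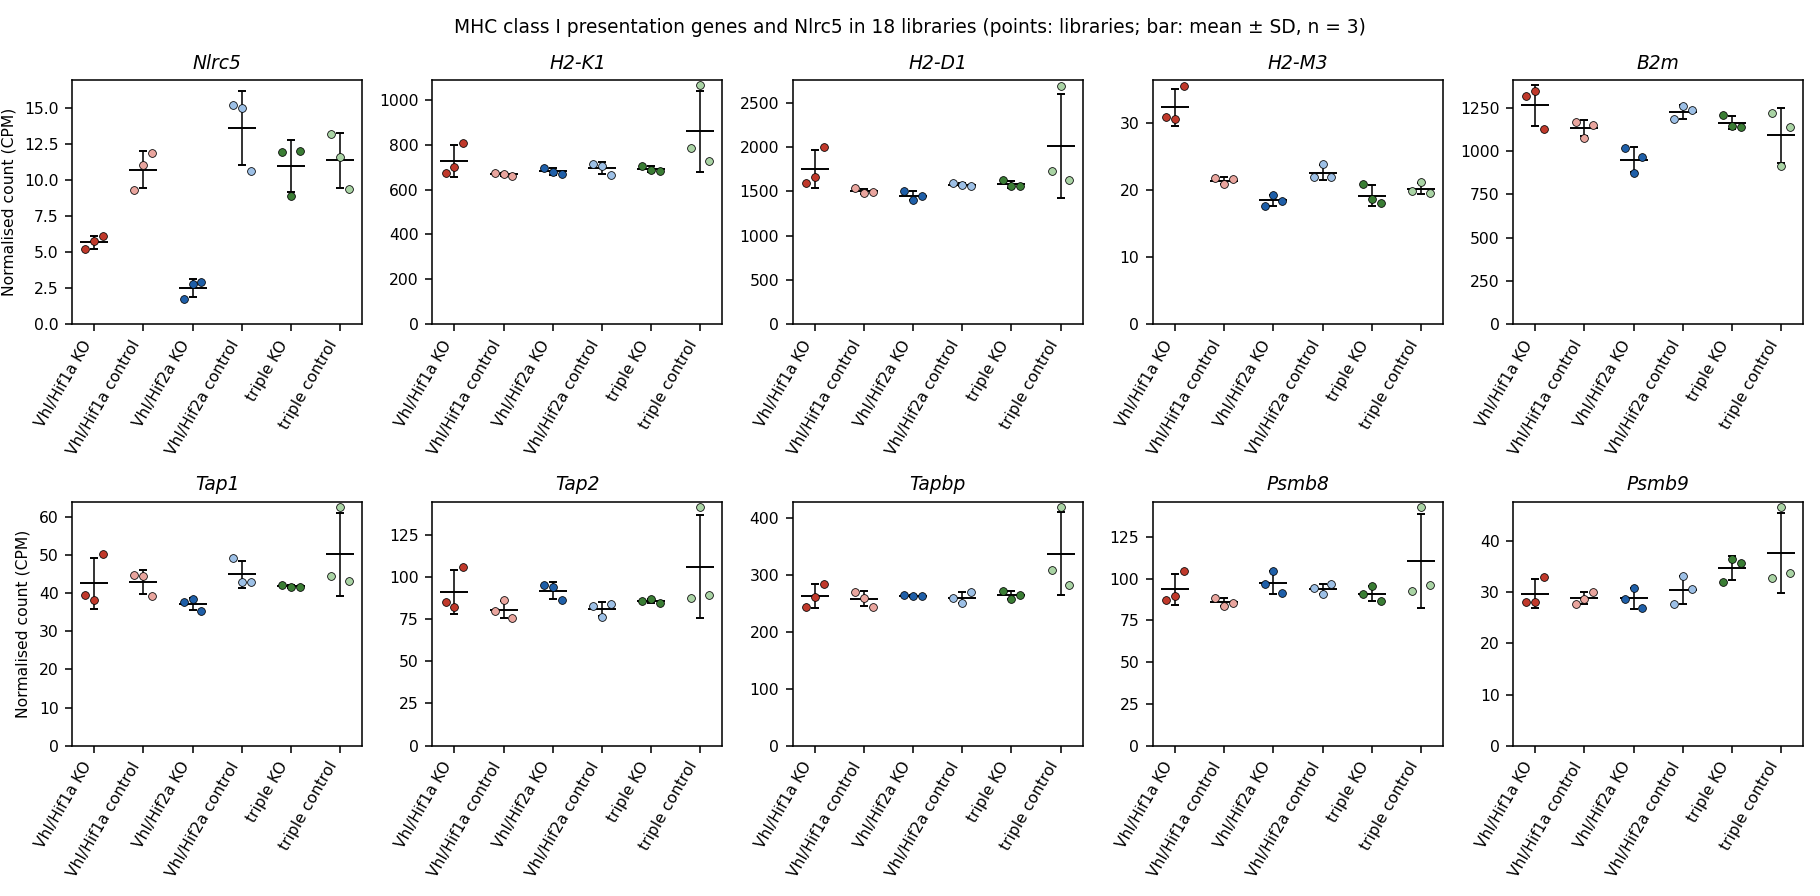
Normalised counts (CPM) of the 10 genes in 18 libraries, 1 panel per gene, with each knockout left of its control (points are libraries, bars the mean ± SD of 3). Nlrc5 is low in both double knockouts, H2-M3 is high in the Vhl/Hif1a knockout alone among the 6 groups, and library 2 of the triple control stands above the rest in 7 panels.

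H2-K1 and H2-D1, the classical chains that present peptide to CD8 T cells, were not called in any knockout, while H2-M3, which presents formylated bacterial peptides, rose in the Vhl/Hif1a knockout and was lower in the libraries labelled Vhl/Hif2a knockout. H2-K1 (chromosome 17, 33996017 to 34000347, minus strand) was at 697, 677 and 668 CPM in Vhl/Hif2a knockout libraries, against 716, 706 and 666 CPM in control libraries. Its groups overlapped, and its log2 fold change was -0.03 (95% interval -0.26 to 0.20), against an interval of -2.87 to -2.01 for Nlrc5 in the same libraries. H2-K1 in the Vhl/Hif1a cross was at 675, 699 and 808 CPM in knockout and 676, 669 and 662 CPM in control libraries, with knockout 3 standing above the rest (log2 fold change 0.12, 95% interval -0.11 to 0.35).

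H2-D1 (chromosome 17, 35262730 to 35267499, plus strand) was at 1502, 1404 and 1451 CPM in Vhl/Hif2a knockout libraries, against 1593, 1575 and 1561 CPM in control libraries. All 3 knockout libraries were lower, by a log2 fold change of -0.12 that was not called (edgeR adjusted p = 0.657, 95% interval -0.41 to 0.17). In the Vhl/Hif1a cross the knockout libraries were higher, at 1599, 1666 and 1998 CPM against 1536, 1483 and 1489 CPM in control libraries (0.22, edgeR adjusted p = 0.568). Of 50-base stretches of the annotated transcripts, 9.63% of H2-K1 and 12.77% of H2-D1 also occur in other genes, 24 genes for H2-K1 and 103 for H2-D1, with other class I genes sharing the most, so their counts depend on how shared reads were assigned, which is not given in the sources used here.

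H2-M3 (chromosome 17, 37270220 to 37274484, plus strand) was at 30.9, 30.6 and 35.5 CPM in Vhl/Hif1a knockout libraries, against 21.8, 20.9 and 21.7 CPM in control libraries. The knockout libraries were the highest of all 6 groups and overlapped none. The log2 fold change was 0.59 ± 0.08 (edgeR adjusted p = 2.5e-04), called in 18 of 18 fits without 1 library. In Vhl/Hif2a knockout libraries H2-M3 was at 17.7, 19.3 and 18.5 CPM, against 21.9, 23.96 and 22.02 CPM in control libraries. The groups did not overlap, but the log2 fold change of -0.29 ± 0.08 (edgeR adjusted p = 0.0261) lost its call without knockout 1 (edgeR adjusted p = 0.124), knockout 3 (0.0697) or control 2 (0.112). In triple knockout libraries H2-M3 was at 20.9, 18.7 and 18.1 CPM, against 19.9, 21.2 and 19.6 CPM in control libraries, and was not called (-0.07 ± 0.08, edgeR adjusted p = 0.645). Its Vhl/Hif1a effect exceeded the Vhl/Hif2a effect by 0.89 ± 0.12 (edgeR adjusted p = 2.4e-04) and the triple effect by 0.67 ± 0.12 (edgeR adjusted p = 0.0050). H2-M3 counts were whole numbers in all 18 libraries, as were those of Nlrc5 and B2m, and 0.58% of its 50-base stretches were shared.

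B2m (chromosome 2, 122147686 to 122153083, plus strand), the light chain shared by class I and related molecules, was at 1016, 871 and 963 CPM in Vhl/Hif2a knockout libraries, against 1182, 1261 and 1234 CPM in control libraries. All knockout libraries lay below all controls. The log2 fold change was -0.37 ± 0.10 (edgeR adjusted p = 0.0171), and the call ended without knockout 2 (-0.31, edgeR adjusted p = 0.0667) or control 2 (-0.35, edgeR adjusted p = 0.0595). B2m in the Vhl/Hif1a cross was at 1316, 1348 and 1126 CPM in knockout and 1170, 1078 and 1151 CPM in control libraries, which overlapped (0.16 ± 0.10, edgeR adjusted p = 0.583). In triple knockout libraries it was at 1206, 1147 and 1138 CPM, against 1218, 915 and 1140 CPM in control libraries (0.09 ± 0.10, edgeR adjusted p = 0.616). The Vhl/Hif1a effect minus the Vhl/Hif2a effect, 0.52 ± 0.14, was not called (edgeR adjusted p = 0.0580), and it was called without any 1 of Vhl/Hif1a knockout 3, triple control 1 or triple control 2 (edgeR adjusted p between 0.0052 and 0.0422).

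**Figure D3:**
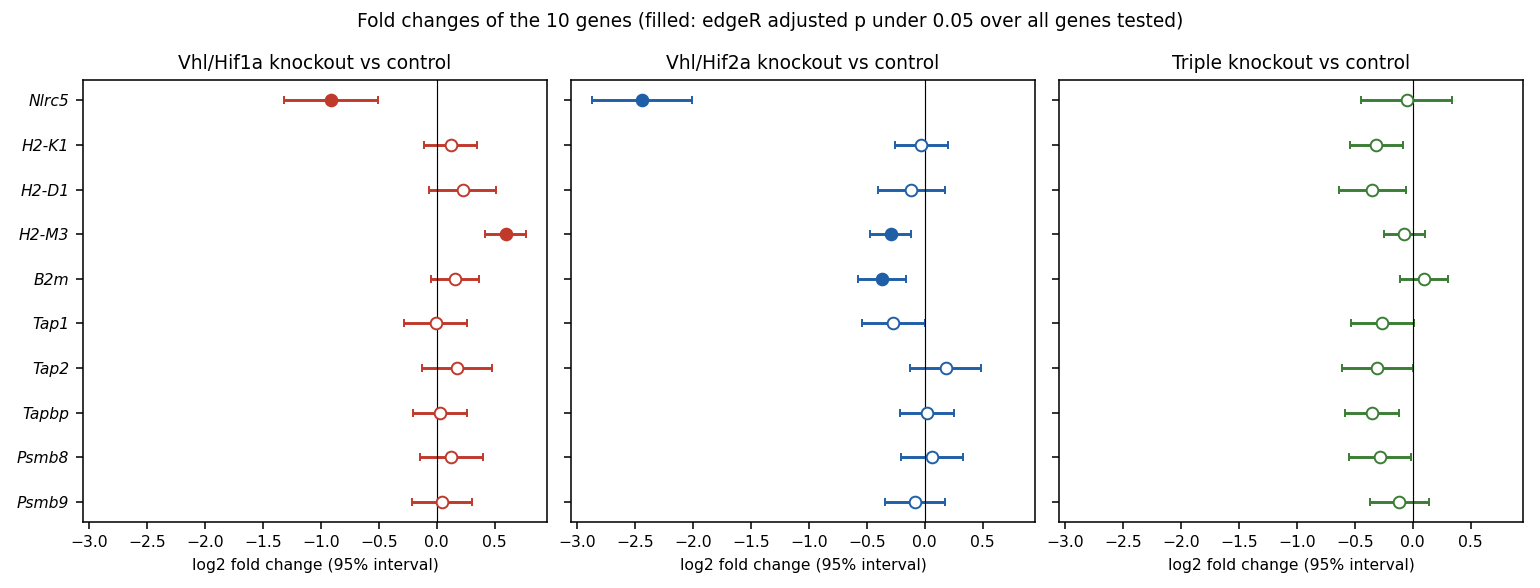
Log2 fold changes of the 10 genes in the 3 knockouts against their own controls, with 95% intervals (filled points have an edgeR adjusted p under 0.05 over all genes). Nlrc5 in the Vhl/Hif2a cross, at -2.44, lies apart from the other 9 genes, none of whose intervals there reaches below -0.58.

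Among the peptide supply genes, Tap1 and Tap2 (the transporter subunits), Tapbp, Psmb8 and Psmb9 were called in none of the knockouts. Tap1 was at 37.5, 38.5 and 35.4 CPM in Vhl/Hif2a knockout libraries, against 49.1, 42.8 and 42.8 CPM in control libraries. These groups did not overlap, with a log2 fold change of -0.27 ± 0.13 that was not called (edgeR adjusted p = 0.190), although it was called without triple control 2 (-0.27, edgeR adjusted p = 0.0455). Tap2 was at 95.2, 93.8 and 86.0 CPM in Vhl/Hif2a knockout libraries, against 82.5, 76.3 and 84.0 CPM in control libraries. Its knockout libraries were all higher, and it was not called either (0.18 ± 0.14, edgeR adjusted p = 0.483). Tapbp was at 262 to 264 CPM in Vhl/Hif2a knockout and 250 to 270 CPM in control libraries, with a 95% interval of -0.22 to 0.25 on the log2 scale. Psmb8 was at 96.8, 105 and 91.4 CPM in Vhl/Hif2a knockout libraries, against 94.1, 90.6 and 96.5 CPM in control libraries. Psmb9 was at 28.7, 30.8 and 26.9 CPM in Vhl/Hif2a knockout libraries, against 27.7, 33.2 and 30.7 CPM in control libraries. Both subunits, which replace constitutive catalytic subunits of the proteasome, overlapped between groups. The intervals of Psmb8 (-0.21 to 0.33) and Psmb9 (-0.34 to 0.17) in that cross also spanned 0, as did those of all 5 genes in the Vhl/Hif1a cross, whose lowest and highest bounds were -0.28 and 0.48. Psmb9 (34181987 to 34187764, minus strand), Tap1 (34187553 to 34197225, plus strand), Psmb8 (34197721 to 34201454, plus strand) and Tap2 (34203527 to 34216321, plus strand) are neighbours on chromosome 17, and Tapbp lies at 33915899 to 33929292. Tap1 and Psmb9 lie head to head and overlap on opposite strands, so their counts also depend on a strand setting that is not given in the sources used here.

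Counted together, 2 of the 10 members were called in the Vhl/Hif1a knockout, 1 higher and 1 lower, where 3.64% of all genes were called, 2.22% higher and 1.42% lower. In the libraries labelled Vhl/Hif2a knockout 3 of 10 were called, all lower, against 14.7% of all genes called in either direction, 7.68% higher and 7.01% lower. In the triple knockout 0 of 10 were called by edgeR and 0 by DESeq2, against 0.0388% of all genes by edgeR, and 5 of 10 had an unadjusted p under 0.05, against 11.5% of all genes. Knockout and control libraries did not overlap for 3 members in the Vhl/Hif1a cross (23.8% of all genes), for 6 in the Vhl/Hif2a cross, 5 of them lower (35.1% of all genes, 16.6% lower), and for 4 in the triple cross, all lower (15.3%, 8.34% lower). The median log2 fold changes of the members were 0.12, -0.10 and -0.27 in the Vhl/Hif1a, Vhl/Hif2a and triple knockouts, against medians between -0.01 and 0.003 over all genes tested. Between effects, 2 members were called for Vhl/Hif1a against Vhl/Hif2a (2.44% of all genes), 1 for Vhl/Hif1a against triple (2.04%) and 1 for Vhl/Hif2a against triple (7.99%). The mean of the 3 effects was called for 1 member, Nlrc5 (-1.14 ± 0.11, edgeR adjusted p = 2.8e-06; 10.1% of all genes). Between control groups 0 members were called (5.4%, 3.42% and 0.341% of all genes), with 6 of 10 at an unadjusted p under 0.05 for Vhl/Hif1a control against triple control, where 24.4% of all genes had one.

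Library 2 of the triple control stood apart for this gene set and also for genes outside it. It bears on the triple comparison and, through the spread that all groups share in the fit, on the others. Outside the set, Psmb5 was at 157 CPM in this library, against 99.99 and 90.0 CPM in the other triple controls. Hif1a was at 137 CPM in it, against 251 and 238 CPM. This library held the highest level of all 18 libraries for 7 of the 10 members, and the share over all genes was not counted. H2-D1 was at 1628, 1558 and 1560 CPM in triple knockout libraries, against 1728, 2689 and 1628 CPM in control libraries. H2-K1 was at 705, 685 and 682 CPM in triple knockout libraries, against 784, 1066 and 728 CPM in control libraries. Tapbp was at 271, 257 and 264 CPM in triple knockout libraries, against 308, 420 and 282 CPM in control libraries. For H2-K1 and Tapbp all knockout libraries lay below all controls, for H2-D1 the groups overlapped, and control 2 was the highest for all 3 genes. Control 2 was 1.60 times the mean of the other controls for H2-D1 and 1.42 times for Tapbp, but 0.776 times for B2m and 1.03 times for Nlrc5. Its summed alveolar macrophage markers, 22175 CPM, were the lowest of all libraries, and its dendritic cell marker sum was 80.2 CPM against 44.5 and 50.5 CPM in the other controls. The log2 fold changes in the triple cross, with and without this library, were -0.35 and -0.08 for H2-D1, -0.32 and -0.12 for H2-K1, -0.35 and -0.15 for Tapbp, -0.31 and -0.04 for Tap2, -0.28 and -0.05 for Psmb8, -0.26 and -0.07 for Tap1, -0.12 and 0.07 for Psmb9, and 0.09 and -0.01 for B2m. None of these was called either way. Without it the pooled within-group SD (log2) was 0.069 for H2-K1, 0.081 for H2-D1 and 0.070 for Tapbp, against 0.135, 0.178 and 0.137 with it, so the intervals given for these genes in the other crosses also rest on this library. Of the 7 members that were highest in it, Tap1 in the Vhl/Hif2a knockout was the single one called in either double knockout without it. H2-D1 in the Vhl/Hif1a knockout then had a log2 fold change of 0.23 (edgeR adjusted p = 0.0619).

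Per kilobase of annotated exon, the median level over the 18 libraries was highest for B2m (1336 CPM per kb), followed by H2-D1 (608), H2-K1 (235), Tapbp (72.6), Psmb8 (27.2), Tap2 (22.7), H2-M3 (14.7), Psmb9 (8.40) and Tap1 (7.76). Nlrc5, at 1.18 CPM per kb, was the lowest. Of the members 8 lie on chromosome 17, where the mouse MHC is, and B2m and Nlrc5 do not.

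Among other class I genes, H2-Q6 and H2-Q7, nonclassical heavy chains of the Qa-2 family, fell in libraries labelled Vhl/Hif2a knockout. H2-Q6 was at 4.63, 5.31 and 6.51 CPM in Vhl/Hif2a knockout libraries, against 27.7, 23.1 and 15.98 CPM in control libraries (-2.02 ± 0.19, edgeR adjusted p = 1.2e-06). H2-Q7 was at 5.42, 7.26 and 5.74 CPM in Vhl/Hif2a knockout libraries, against 25.1, 25.5 and 13.9 CPM in control libraries (-1.81 ± 0.21, edgeR adjusted p = 1.1e-05). Both genes had separate groups and their lowest control in control 3, as Nlrc5 did. In the Vhl/Hif1a cross their knockout libraries were also all lower, by -0.43 and -0.45 on the log2 scale, but not called (edgeR adjusted p = 0.310 and 0.342), and in the triple cross they were at -0.28 each (edgeR adjusted p = 0.456 and 0.477). The Vhl/Hif2a effect minus the triple effect was called for H2-Q6 (-1.73 ± 0.26, edgeR adjusted p = 4.0e-04) and H2-Q7 (-1.53 ± 0.29, edgeR adjusted p = 0.0026). Their 50-base stretches are shared with other genes at 31.97% and 26.41%, so their values are uncertain as single genes.

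The nonclassical chain H2-T23 (Qa-1, a ligand of NKG2 receptors) paralleled H2-M3 in the Vhl/Hif1a cross. It was at 200, 211 and 238 CPM in Vhl/Hif1a knockout libraries, against 148, 142 and 143 CPM in control libraries (0.59 ± 0.11, edgeR adjusted p = 0.0030), with no overlap. In the Vhl/Hif2a cross it was at 152, 136 and 148 CPM in knockout and 155, 148 and 151 CPM in control libraries (edgeR adjusted p = 0.798). Of the list of class I chains, which includes 4 members, 14 of 20 genes were tested. In the Vhl/Hif1a knockout 2 rose (H2-M3 and H2-T23) and 0 fell, against 2.22% of all genes higher and 1.42% lower, with a list median of 0.10. In the libraries labelled Vhl/Hif2a knockout 0 rose and 5 fell (H2-M3, B2m, H2-Q6, H2-Q7 and H2-T24), against 7.01% of all genes lower, with a median of -0.18. In the triple knockout 0 were called by edgeR, with 4 at an unadjusted p under 0.05, against 11.5% of all genes.

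**Figure D4:**
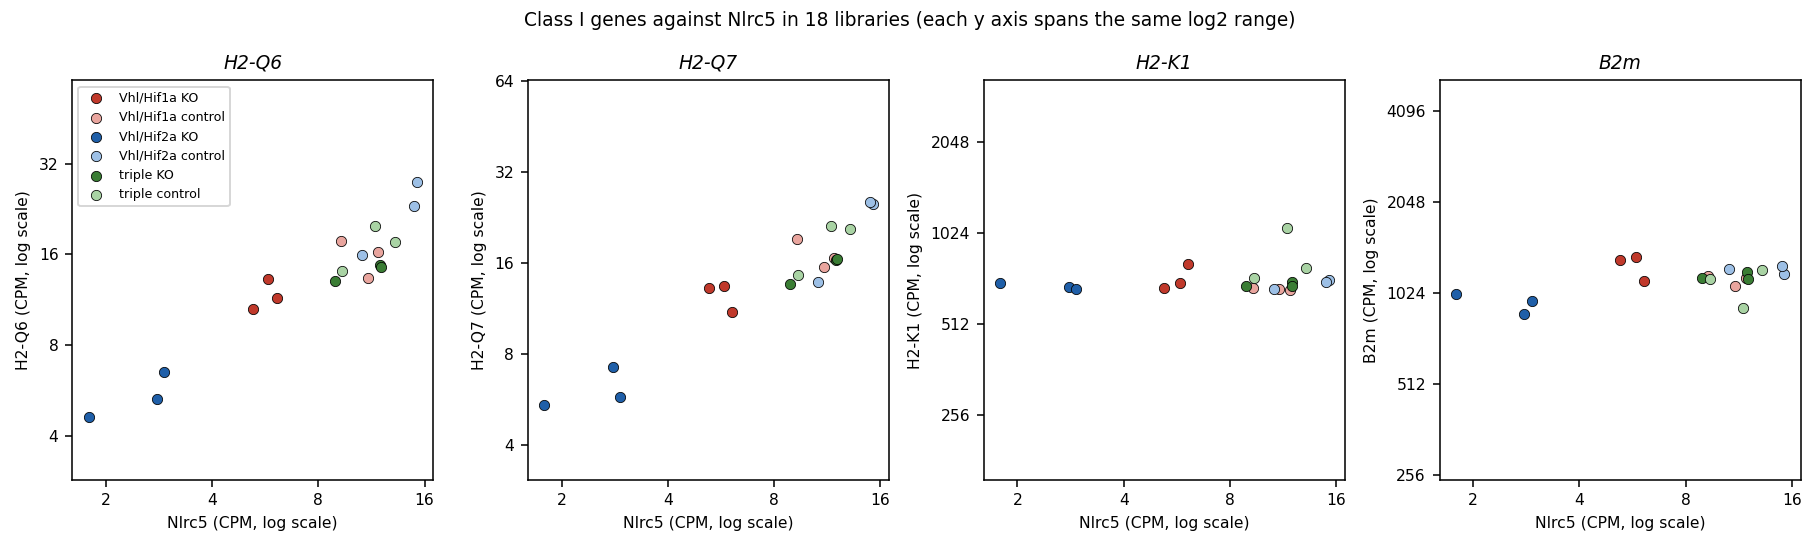
Levels of H2-Q6, H2-Q7, H2-K1 and B2m against Nlrc5 in 18 libraries (CPM, log2-scaled axes, each y axis spanning the same log2 range). H2-Q6 and H2-Q7 are lowest where Nlrc5 is lowest, in the Vhl/Hif2a knockout at 4.63 to 7.26 CPM, while H2-K1 stays between 662 and 1066 CPM.

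By likeness over the 18 libraries, the 5 genes outside the members with a mean of at least 5 CPM that most resembled Nlrc5 were Ncapd2, Fgd3, Slc8a1, Slc7a6 and C3, with Pearson r of log2(CPM + 1) between 0.948 and 0.957. H2-Q6 was 7th (0.945) and H2-Q7 10th (0.943) in that order. For H2-K1 the 5 were Nfkbib, Cyba, Sphk2, Adrm1 and Aup1 (0.946 to 0.962). Nlrc5 itself had r = 0.20 with H2-K1, whereas H2-K1 had r = 0.96 with H2-D1. The libraries share group differences, and triple control 2 is high for both H2-K1 and H2-D1, so these are descriptions only.

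The transactivator list showed opposite moves of Nlrc5 and Ciita, its class II counterpart, in the Vhl/Hif1a cross. Ciita was at 87.5, 98.3 and 122 CPM in Vhl/Hif1a knockout libraries, against 6.62, 6.39 and 12.5 CPM in control libraries (3.59 ± 0.30, edgeR adjusted p = 7.5e-07). Knockout libraries lay far above all controls. Both transactivators were lower in the libraries labelled Vhl/Hif2a knockout, Ciita by -0.98 ± 0.29 (edgeR adjusted p = 0.0335). Of the 12 genes of this list, 1 rose and 1 fell in the Vhl/Hif1a knockout (Ciita and Nlrc5), and 1 rose (Rfxank, an RFX subunit, 0.33 ± 0.10) and 2 fell in the Vhl/Hif2a knockout, with 0 called in the triple knockout by edgeR. Over all genes 2.22% rose and 1.42% fell in the Vhl/Hif1a knockout, and 7.68% rose and 7.01% fell in the Vhl/Hif2a knockout. Rfx5, the DNA-binding RFX subunit, was at 0.10 ± 0.11, 0.04 ± 0.11 and 0.07 ± 0.11 in the Vhl/Hif1a, Vhl/Hif2a and triple knockouts.

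Of 18 genes of interferon signalling, 6 fell in libraries labelled Vhl/Hif2a knockout and 0 rose, against 7.01% of all genes lower and 7.68% higher there, with a list median of -0.18. Among them were the kinases Jak2 (-0.44 ± 0.14) and Tyk2 (-0.30 ± 0.10), Stat3 (-0.23 ± 0.07), Irf8 (-0.37 ± 0.11) and Irf7. In the Vhl/Hif1a and triple knockouts 0 of the 18 were called by edgeR, with 2 and 1 at an unadjusted p under 0.05, against 13.2% and 11.5% of all genes. Irf1, an interferon-induced activator of class I promoters, was at -0.26 ± 0.17, -0.38 ± 0.17 and 0.05 ± 0.17 in the Vhl/Hif1a, Vhl/Hif2a and triple knockouts, called in none. Irf7 was at 3.14, 2.14 and 3.26 CPM in Vhl/Hif2a knockout libraries, against 8.48, 8.53 and 8.18 CPM in control libraries (-1.56 ± 0.23, edgeR adjusted p = 1.7e-04). Whether these changes bear on Nlrc5 was not tested.

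Of the 11 class II genes 7 rose in the Vhl/Hif1a knockout, against 2.22% of all genes higher there. In the Vhl/Hif2a knockout 3 fell (H2-DMa, H2-DMb2 and H2-Oa), against 7.01% of all genes lower. Of 10 tested genes of cross-presentation 2 fell in the Vhl/Hif2a knockout (Rab27a, -0.36, and Vcp, -0.24), against 7.01% of all genes lower there and 14.7% called either way. Of 5 class I receptors of myeloid cells 1 fell in the Vhl/Hif1a knockout (Pira2, -0.36, edgeR adjusted p = 0.0499), against 1.42% of all genes lower. In the triple knockout 0 genes of these 3 lists were called by edgeR. There 5 class II genes and 1 cross-presentation gene had an unadjusted p under 0.05, against 11.5% of all genes.

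Of 14 tested genes of peptide loading and trimming 1 rose in the Vhl/Hif2a knockout (Npepps, a cytosolic aminopeptidase, 0.48 ± 0.10), where 7.68% of all genes rose. Of 6 immunoproteasome and activator genes 0 were called in any knockout by edgeR. In the triple cross 2 of them had an unadjusted p under 0.05, against 11.5% of all genes, and 0 did in the others. Of 14 constitutive proteasome core genes 1 rose in the Vhl/Hif2a knockout, Psmb6, whose place in the core PSMB9 takes. Both counts of 1 in 14 were near the 7.68% of all genes that rose there. Psmb6 was at 94.1, 103 and 89.2 CPM in Vhl/Hif2a knockout libraries, against 71.7, 70.6 and 68.7 CPM in control libraries (0.44 ± 0.14, edgeR adjusted p = 0.0485). In Vhl/Hif1a knockout libraries it was at 80.4, 86.3 and 108 CPM, against 65.3, 67.8 and 61.3 CPM in control libraries, not called (0.50 ± 0.14, edgeR adjusted p = 0.0732). Its groups did not overlap in either cross.

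The log2 ratio of Psmb9 to Psmb6 was lower in knockout libraries of both double crosses. It was -1.71, -1.74 and -1.73 in Vhl/Hif2a knockout libraries, against -1.37, -1.09 and -1.16 in control libraries. In Vhl/Hif1a knockout libraries it was -1.51, -1.61 and -1.71, against -1.24, -1.24 and -1.02 in control libraries. All knockout libraries were lower in both crosses, with mean differences of -0.52 and -0.45, and a two-sided exact permutation test gave p = 0.1 for each, the smallest that 3 libraries against 3 allow. Adjusted over the 9 ratio comparisons it was 0.45. In the triple cross the ratio was -1.31, -1.07 and -1.22 in knockout and -1.44, -1.49 and -1.25 in control libraries, which overlapped (0.19, exact permutation p = 0.2). Psmb8 over Psmb5 and Psmb10 over Psmb7 overlapped between groups in all 3 crosses (exact permutation p between 0.2 and 0.7).

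**Figure D5:**
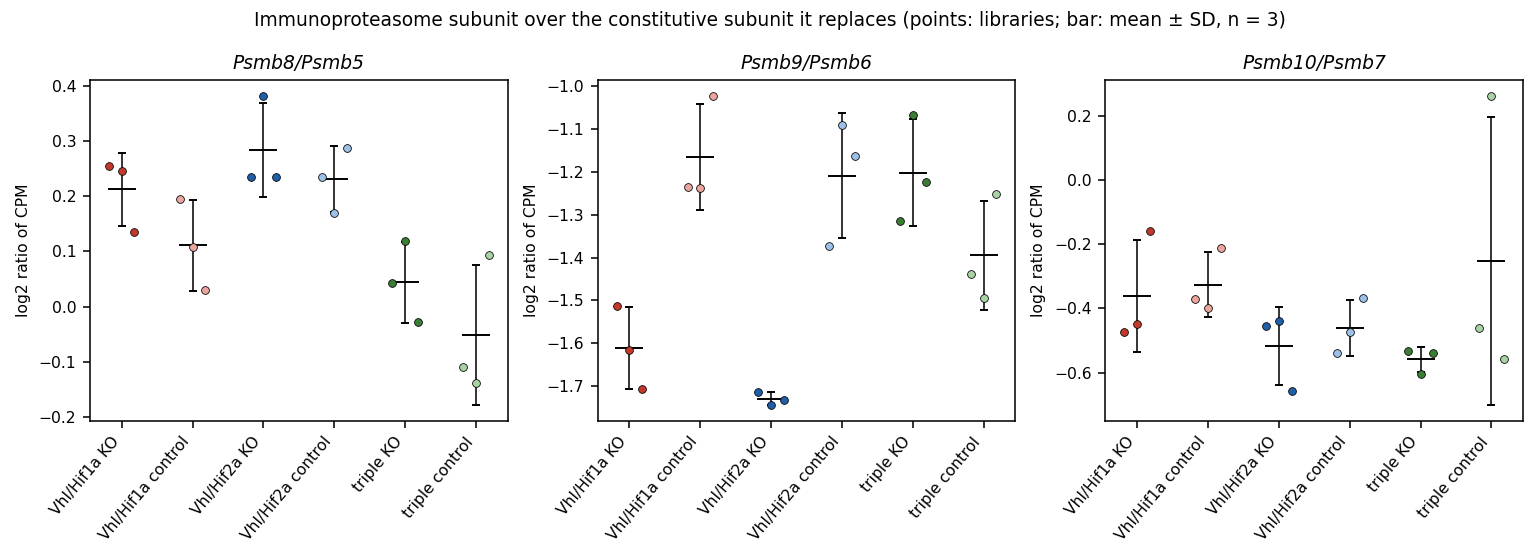
Log2 ratio of the CPM of each immunoproteasome subunit to that of the constitutive subunit it replaces, by library, with each knockout left of its control (points are libraries, bars the mean ± SD of 3, y axes differ). The Psmb9 to Psmb6 ratio is at -1.51 or below in all 6 double knockout libraries and at -1.37 or above in their controls.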

How the data were processed

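The values deposited were taken for gene-level expected counts, meaning estimated read numbers with decimals, because 89.3% of them, and not all, were whole and library totals differed. Per the submitters' processing notes, the pipeline used FastQC, cutadapt and STAR with the genome build GRCm38. The sources used here give no versions, counting tool, annotation release or strand setting, which matters for genes that share sequence or overlap. Values were rounded to whole counts after their decimals were seen. The filterByExpr function of edgeR, with groups given, left 12900 genes tested and 19889 not tested.

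After TMM scaling, the edgeR quasi-likelihood test was fitted to all 18 libraries with 1 coefficient per group and no covariates. Calls have a Benjamini-Hochberg adjusted p under 0.05 over all genes tested. The SE of a log2 fold change is its size over the square root of F. The 10 contrasts were 3 knockouts against their own controls, the 3 differences of these effects, their mean, and 3 pairs of controls. Single ratios were compared with exact permutation tests. Alternatives were DESeq2 size factors, no filter, DESeq2, fits on only the groups compared, a replicate block and leaving out each library. Errors rest on the spread between libraries, so they do not cover a PCR bias that all libraries share. The code was tested on counts simulated from the same model, with the spread estimated from these libraries. That simulation held no library that stood apart, so it cannot show how well the model suits these data. Software was edgeR 4.0.16, DESeq2 1.42.0 and limma 3.58.1 under R 4.3.3.

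The members, the 9 pathway lists, the 8 marker lists and the tests were chosen with earlier results of these data known. The text names the 10 members, Vhl, Hif1a and Epas1, list genes called in a knockout comparison or needed to read a member, and the 5 genes most like Nlrc5 and H2-K1. Positions and transcripts came from GENCODE M21 on GRCm38 and promoters from RefSeq, where the H2-K1 window at the annotated gene start was used.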

Additional observations from a re-analysis of the deposited data

Results flagged for a closer look

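Of the effects compared between crosses, 4 differed by a test of the difference itself in the edgeR fit. The Vhl/Hif1a effect on Nlrc5 minus the Vhl/Hif2a effect was 1.52 on the log2 scale, since Nlrc5 fell by 0.91 in the Vhl/Hif1a knockout and by 2.44 in the libraries labelled Vhl/Hif2a knockout. For the same gene the Vhl/Hif2a effect minus the triple effect was -2.38. H2-M3 had a Vhl/Hif1a effect that exceeded the Vhl/Hif2a effect by 0.89 and the triple effect by 0.67. All 4 were called in each of the 18 fits that left out 1 library.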

How the results depend on the processing

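By edgeR unless another tool is named, for the 10 members and 7 knockout contrasts, 70 results gave 1600 values under the alternatives. Of these, 1578 kept their side of the threshold, 9 lost a call, 13 gained one and 0 reversed. Among the 1578 were 42 values, called under neither setting, that changed sign. The Nlrc5 fall in the Vhl/Hif2a knockout and the H2-M3 rise in the Vhl/Hif1a knockout kept their calls under all alternatives. H2-M3 in the Vhl/Hif2a knockout lost its call with no filter (adjusted p = 0.123). B2m gained a call for the Vhl/Hif1a minus Vhl/Hif2a effect with DESeq2 (0.0099) and in the fit on only the groups compared (0.0223), and for the Vhl/Hif2a minus triple effect with DESeq2 (0.0184). Without triple control 3, the Vhl/Hif1a minus triple effect was called for H2-K1 (0.54, 0.0492) and H2-D1 (0.70, 0.0434), and the Vhl/Hif2a minus triple effect for Tapbp (0.48, 0.0427) and B2m (-0.49, 0.0452), which was also called without triple control 1 (-0.55, 0.0210) or Vhl/Hif1a knockout 3 (-0.46, 0.0402). The cause was not tested.

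Replicate numbers gave no sign of pairing, although so few pairs cannot exclude it. After group means were subtracted, correlations between same-numbered knockout and control libraries ran from -0.29 to 0.23, with both signs within each cross. Those between differently numbered libraries ran from -0.31 to 0.32. With a replicate block, H2-M3 in the Vhl/Hif2a knockout had an adjusted p of 0.0675, and the counts of genes called were 313, 1440 and 4 in the Vhl/Hif1a, Vhl/Hif2a and triple knockouts, 194 for Vhl/Hif1a minus Vhl/Hif2a and 150 for Vhl/Hif1a minus triple (315 and 263 without it).

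Counts of all genes called moved more. With DESeq2 they were 11 in the triple knockout (5 with edgeR), 492 for Vhl/Hif1a minus Vhl/Hif2a, 474 for Vhl/Hif1a minus triple, and 1276, 968 and 88 for Vhl/Hif1a control against triple control, Vhl/Hif2a control against triple control and Vhl/Hif1a control against Vhl/Hif2a control (697, 441 and 44 with edgeR). Fits on only the groups compared called 2 in the triple knockout, 683 for Vhl/Hif2a minus triple (1031 in the full fit), and 59 and 17 for the Vhl/Hif1a and Vhl/Hif2a controls against triple control. Members called were 1 with DESeq2 size factors, 1 with no filter and 4 with DESeq2 for Vhl/Hif1a control against triple control, 1 with DESeq2 for Vhl/Hif2a control against triple control, and 2 with DESeq2 for Vhl/Hif2a minus triple.

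Leaving out 1 library at a time gave 282 to 841 genes called in the Vhl/Hif1a knockout, 1227 to 2888 in the Vhl/Hif2a knockout and 3 to 5 in the triple knockout. The range was 216 to 515 for Vhl/Hif1a minus Vhl/Hif2a, 161 to 413 for Vhl/Hif1a minus triple, 687 to 1406 for Vhl/Hif2a minus triple and 1040 to 2053 for the mean effect. Between controls it was 209 to 1211 (Vhl/Hif1a against triple), 142 to 859 (Vhl/Hif2a against triple) and 21 to 60 (Vhl/Hif1a against Vhl/Hif2a). Members called were 1 to 2 in the Vhl/Hif1a knockout, 1 to 4 in the Vhl/Hif2a knockout, 1 to 3 for Vhl/Hif1a minus triple, 1 to 3 for Vhl/Hif2a minus triple, 2 to 3 for Vhl/Hif1a minus Vhl/Hif2a, 0 to 6 for Vhl/Hif1a control against triple control and 0 to 3 for Vhl/Hif2a control against triple control. The highest member count in the Vhl/Hif2a knockout came without triple control 2.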
